A study of Mus musculus with 36 samples.

Results

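The 10 genes described here, Mlxipl, Zbtb20, Tead1, Slc7a11, Slc7a2, Abca9, Dock10, Ly6e, Rwdd2a and Amn, were taken from a table of 19164 genes because they had small unadjusted p-values for genotype in whole brains on postnatal day 56. They were then followed over 36 libraries of 3 ages. At day 56, 7 of the 10 had a higher mean and 3 a lower mean in the heterozygote-labelled brains. Because the choice rests on that comparison, values from day 56 are given as a description only, and tests are confined to the libraries of days 3 and 21. In those tests 0 of the 10 genes passed for genotype at either age, and 8 of the 10 changed with age in wild-type brain, near the share of all genes that did (78.9%).

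RNA was sequenced from whole brains of untreated male C57BL/6J mice that were labelled wild-type or heterozygous for Myt1l, which encodes a neuronal transcription factor with zinc fingers. Brains were collected at P3, P21 and P56 (postnatal days 3, 21 and 56), with 8 mice of each genotype at P3 and 5 of each at P21 and at P56. Pups of both genotypes grew up together with a mother until weaning. The allele, the litters and any sequencing batch are not given in the labels. The heterozygous mice are called heterozygote-labelled below, for the reason given with the values of Myt1l.

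The 10 genes do not form a pathway. Mlxipl (the carbohydrate response element binding protein ChREBP), Tead1 and Zbtb20 encode transcription factors of sugar metabolism, of the Hippo growth pathway and of glial and hippocampal development. Slc7a11 exchanges extracellular cystine for glutamate and so feeds glutathione synthesis, Slc7a2 imports arginine and lysine, and Abca9 belongs to a subfamily of ATP-driven transporters linked to lipids. Dock10 activates small GTPases that shape the actin cytoskeleton, Ly6e is an interferon-inducible protein anchored to the cell surface, Amn (amnionless) holds the vitamin B12 receptor cubilin at the membrane of kidney and gut cells, and Rwdd2a is a little-studied protein with an RWD domain.

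All values are normalized counts, that is, estimated reads per gene after scaling of the libraries to each other, and the number of reads behind them is unknown. The scaled totals were 31707059 to 33555147 at P3, 34492184 to 37840500 at P21 and 34475862 to 38202024 at P56. Myt1l itself had a normalized count of 15659 ± 934 in heterozygote-labelled and 11235 ± 538 in wild-type libraries at P3 (SD, n = 8 each), so the label was not matched by a lower level of its gene. At P21 the means were 7742 and 7210.1, and at P56 they were 6536 and 6053. On the first 2 principal components of their age, 3 libraries lay more than 2 SD from the mean, P3 wild-type replicate 1, P21 heterozygote-labelled replicate 3 and P21 wild-type replicate 5. Of the 10 markers each of neurons, of astrocytes, of oligodendrocytes and of microglia, 0 were at 0 throughout any group. The same held for markers of blood cells and of choroid plexus, so this does not test the labelled tissue. Marker genes of the anterior pituitary summed to between 60.4 and 21844 in the libraries of P21 and P56, so some brains carried pituitary RNA. In whole brain, fewer cells of a type and less RNA per cell cannot be told apart. Nothing in the labels tells whether litters were shared, so p-values measure only the spread between these samples.

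At P56 the 10 genes held places 1 to 4 and 6 to 11 when all 17310 genes tested were ordered by p, with unadjusted p-values from 1.59e-05 to 4.63e-04. The groups did not overlap for 9 of the 10, with 6 higher and 3 lower. Over all genes, 0.607% were higher without overlap and 0.809% lower, 1.42% in all, but since the genes were chosen on these libraries nothing is read from that contrast. Just outside the choice lay the astrocyte glutamate transporter gene Slc1a2, with an unadjusted p of 5.64e-04 and a log2 difference of 0.35. With Benjamini-Hochberg adjustment limma called 0 of 17310 genes (0%) at P56, of which 1313 (7.59%) had an unadjusted p under 0.05.

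**Figure D1:**
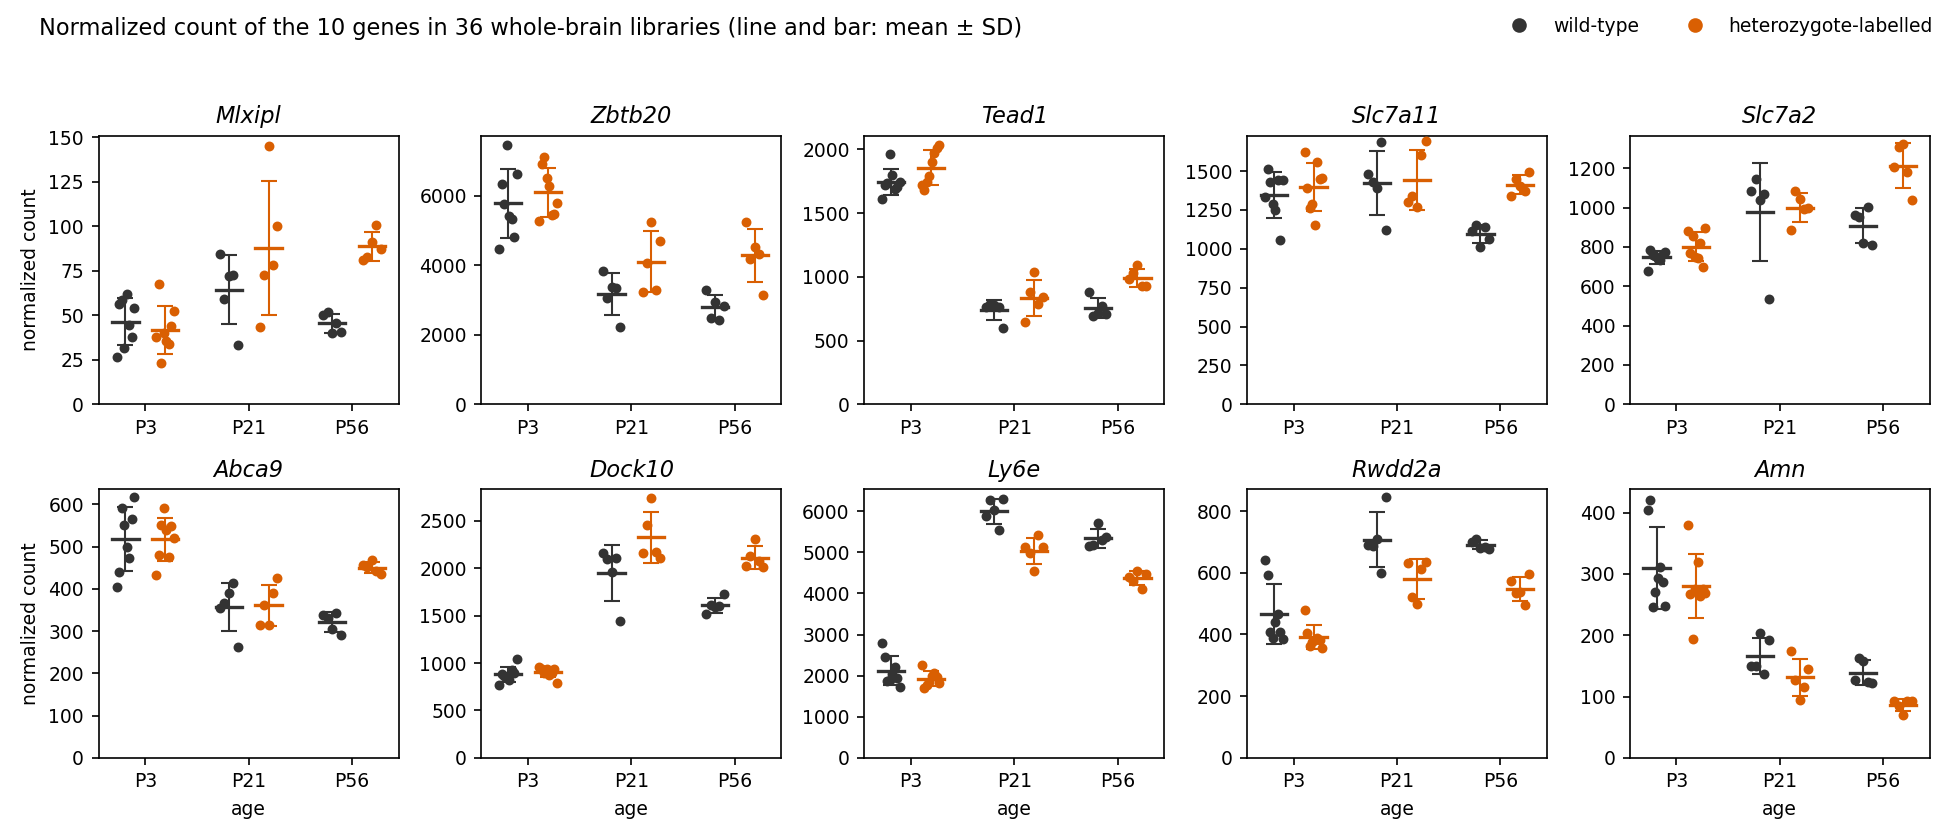
Normalized count (vertical axis) of each of the 10 genes by age (horizontal axis) in every library, with wild-type in dark grey, heterozygote-labelled in orange, and a line and bar for the mean ± SD (n = 8 per genotype at P3 and 5 at P21 and P56). At P56 the 2 genotypes are apart for every gene except Zbtb20, and at P21 only for Ly6e.

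Mlxipl, the transcription factor through which cells raise glycolytic and lipid-forming genes when glucose is plentiful, was the least abundant of the 10 and differed most at P56. It lies on chromosome 5 (chr5:135089890-135138382, plus strand, GRCm38) and has 5538 exonic bases, of which 235 overlap the antisense gene Gm43500. The library kit does not record the strand, so reads from such a stretch cannot be told apart. The wild-type libraries of P56 had normalized counts of 50.3, 51.5, 39.8, 45.4 and 40.6, and the heterozygote-labelled libraries had 80.9, 82.9, 91.1, 101 and 87.1. No heterozygote-labelled library came near the wild-type range, with means of 88.6 ± 7.90 and 45.5 ± 5.40 (SD, n = 5 each). The log2 difference from the fit, on values plus 1, was 0.95, a fold of 1.93. At P21 the wild-type libraries had 84.6, 59.3, 71.8, 72.8 and 33.4 and the heterozygote-labelled ones 43.5, 72.3, 145, 78.4 and 99.99. These ranges overlapped widely, with the highest value in replicate 3, a library that lay beyond 2 SD. The log2 difference at P21 was 0.40 (95% interval -0.25 to 1.05, limma adjusted p = 0.529), and without the libraries beyond 2 SD it was -0.021. At P3 the values ran from 26.5 to 61.9 (median 49.3) in wild-type and from 23.4 to 67.5 (median 39.0) in heterozygote-labelled brains, with a log2 difference of -0.15 (limma adjusted p = 0.925). From P3 to P21 Mlxipl rose in heterozygote-labelled brains, by 1.01 on the log2 scale (limma adjusted p = 0.0017). In wild-type brains the change was 0.46 (adjusted p = 0.0941), and without P21 wild-type replicate 5 it was 0.67 (adjusted p = 0.0108). The difference between these changes was not called (0.55, 95% interval -0.21 to 1.31, limma adjusted p = 0.678).

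The gene is transcribed from alternative starts, and its normalized count adds them up. The 250 bases before the 2 starts listed by RefSeq (GRCm38.p6) are shown because ChREBP with its partner Mlx binds E-boxes, here searched as CACGTG on both strands and printed in capitals where found. That hexamer was in 6.02% of 32851 promoter windows of this length.
Mlxipl, chr5:135089640-135089889, plus strand: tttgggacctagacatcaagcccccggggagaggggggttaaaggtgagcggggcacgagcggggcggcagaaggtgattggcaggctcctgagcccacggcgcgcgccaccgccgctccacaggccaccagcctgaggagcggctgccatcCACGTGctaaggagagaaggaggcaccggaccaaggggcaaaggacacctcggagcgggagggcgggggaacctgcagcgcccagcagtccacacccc
Mlxipl, chr5:135106641-135106890, plus strand: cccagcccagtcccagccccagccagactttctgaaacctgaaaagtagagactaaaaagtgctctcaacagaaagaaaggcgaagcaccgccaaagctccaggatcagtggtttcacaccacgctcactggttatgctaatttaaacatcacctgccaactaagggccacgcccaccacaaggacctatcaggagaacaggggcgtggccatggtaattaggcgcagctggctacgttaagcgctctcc
The window of the first start holds CACGTG at 93 to 98 bases before the start, and that of the second holds none of the 5 motifs searched. A match is a stretch of letters and not a shown binding site.

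A list of ChREBP partners and targets had 21 tested genes, Mlxipl included. From P3 to P21 in wild-type brain 10 were called higher and 7 lower, where 38.5% and 40.4% of all genes were. The median log2 change was 0.19 in the list and -0.025 over all genes. Gpd1, which links glycolysis to glycerolipid synthesis, rose by 4.14, and Arrdc4, a glucose-induced arrestin-like gene, fell by 2.09 on the log2 scale (limma, Benjamini-Hochberg adjusted p of 1.39e-15 and 2.00e-13). For genotype, 0 of the list passed at P3 or P21, and at P56, 12 of 21 were higher and 9 lower, with a median log2 difference of 0.063.

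Zbtb20, a zinc-finger repressor needed for hippocampal neurons and for the formation of astrocytes, had the highest normalized count among the 7 genes with a higher mean at P56. It spans chr16:42875881-43642602 on the plus strand (GRCm38), and its 30730 annotated exonic bases were longer than those of 99.9% of tested genes. Of these bases 104 overlap the antisense gene Gm9968. At P56 the wild-type libraries had 3289.7, 2472, 2956, 2438 and 2842 and the heterozygote-labelled ones 5235, 4197, 4535, 4326 and 3143. Replicate 5 of the latter lay below the highest wild-type library, which made Zbtb20 the gene of the 10 whose groups overlapped, at means of 4287 ± 755 and 2799.7 ± 355 (SD, n = 5 each) and a log2 difference of 0.60. The P21 wild-type libraries had 3836, 3073, 3374, 3349 and 2217 and the heterozygote-labelled ones 3246, 4062, 5259.6, 3285 and 4690.3, with 3 of the 5 heterozygote-labelled libraries above every wild-type one. The difference of 0.37 on the log2 scale (95% interval 0.033 to 0.71) had an unadjusted p of 0.0339 and a limma adjusted p of 0.315. At P3 it was 0.088 (adjusted p = 0.904), with medians of 6039 and 5588. With age Zbtb20 fell in both genotypes from P3 to P21, by 0.87 in wild-type (limma adjusted p = 1.46e-05) and by 0.59 in heterozygote-labelled brains (adjusted p = 1.97e-04). Of 13 gliogenic transcription factors in a list with Zbtb20, 4 rose and 8 fell in wild-type brain over that time, with a median of -0.37. Over all genes 38.5% were called higher and 40.4% lower. Sox10, the master factor of oligodendrocytes, rose by 1.46, and Nfib, a factor of glial onset, fell by 1.01 on the log2 scale (limma adjusted p of 6.40e-08 and 3.57e-12).

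Tead1, the DNA-binding partner of the Hippo pathway effectors YAP and TAZ, had its highest level soon after birth. The gene lies at chr7:112679318-112906807 (plus strand, GRCm38), with 13570 exonic bases. Its normalized count at P3 ran from 1615 to 1962 (median 1729.8) in wild-type and from 1682 to 2038 (median 1847) in heterozygote-labelled brains, a log2 difference of 0.086 (95% interval -0.013 to 0.19, limma adjusted p = 0.903). At P21 the wild-type libraries had 766, 788, 783, 767 and 600.1, so 4 of them lay close together and replicate 5 stood below. The heterozygote-labelled ones had 644, 877, 1036, 784 and 839, a wider spread on both sides of the wild-type values (log2 difference 0.16, limma adjusted p = 0.494). The fall from P3 to P21 was 1.24 on the log2 scale in wild-type (adjusted p = 2.49e-11) and 1.16 in heterozygote-labelled brains (adjusted p = 5.19e-10), and the P3 and P21 libraries did not overlap in either genotype. At P56 the wild-type libraries had 881, 693, 719, 774 and 709.6 and the heterozygote-labelled ones 983, 1027, 1094, 929 and 930.4, a log2 difference of 0.40. Of 25 Hippo and TEAD pathway genes with Tead1 among them, 4 rose and 15 fell from P3 to P21 in wild-type brain, with a median of -0.18. The shares called over all genes were 38.5% higher and 40.4% lower. Lats2, a kinase that restrains YAP, rose by 1.32, while the protocadherin Fat4 and its ligand Dchs1 fell by 3.14 and 3.02 on the log2 scale (limma adjusted p of 7.28e-10, 1.53e-12 and 1.27e-11). For genotype, 0 of the 25 passed at P3 or P21, and at P56, 20 were higher and 5 lower (median 0.11).

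Slc7a11, the cystine and glutamate exchanger of astrocytes and meninges, was the member whose level changed least from P3 to P21. It lies on the minus strand of chromosome 3 (chr3:49892526-50443614, GRCm38) and has 13922 exonic bases. Its normalized count had medians of 1382 in wild-type and 1417 in heterozygote-labelled brains at P3, within ranges of 1058 to 1514 and 1154 to 1620.4. In wild-type libraries of P21 the values were 1481, 1428, 1390.3, 1689 and 1118 and in heterozygote-labelled ones 1302, 1339.7, 1268, 1602 and 1694. The groups lay on top of each other at both ages, with log2 differences of 0.054 and 0.023 (limma adjusted p of 0.925 and 0.939). At P56 the wild-type libraries had 1114, 1150.3, 1014, 1137 and 1060.5 and the heterozygote-labelled ones 1336, 1451, 1401, 1374 and 1491. The wild-type mean of P56 was thus the lowest of the 6 groups, at 1095 ± 56.9, and the heterozygote-labelled mean of 1410.5 ± 61.2 (SD, n = 5 each) lay between the wild-type means of P3 and P21. The change from P3 to P21 was 0.075 in wild-type and 0.044 in heterozygote-labelled brains (limma adjusted p of 0.469 and 0.654). It was called higher, at 0.37 (adjusted p = 0.00155) and 0.25 (adjusted p = 0.0298), once a trend of the change on gene length was removed, and its sign turned with all libraries scaled to a common total (-0.11 in each genotype).

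The promoter of Slc7a11 is known to respond to amino acid shortage and to oxidative stress, so its 250 bases before the start are shown (RefSeq, GRCm38.p6). Capitals mark the core of the amino acid response element, TGATGCAA, on either strand, and the core AAGTT bound by the MYT1 family to which Myt1l belongs.
Slc7a11, chr3:50443614-50443863, minus strand: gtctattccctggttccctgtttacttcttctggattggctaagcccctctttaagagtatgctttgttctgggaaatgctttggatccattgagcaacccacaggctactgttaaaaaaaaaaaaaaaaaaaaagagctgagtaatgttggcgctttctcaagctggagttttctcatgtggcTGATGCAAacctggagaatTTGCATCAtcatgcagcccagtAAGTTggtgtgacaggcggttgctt
The window holds the amino acid response element core once on each strand, at 59 to 66 and at 40 to 47 bases before the start, and AAGTT at 21 to 25 bases. The first motif was in 0.791% of the 32851 windows and AAGTT in 35.3%. Among the members with an entry, AAGTT was also in 1 of 2 windows of Dock10 and in that of Zbtb20, and the antioxidant core TGACNNNGC, in 10.2% of windows, was not in that of Slc7a11.

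A list on cystine uptake and glutathione also holds stress response genes such as Hmox1 and Atf4. Of its 21 genes (Slc7a11 among them), 14 rose and 2 fell from P3 to P21 in wild-type brain, with a median of 0.44. Over all genes 38.5% were called higher and 40.4% lower. Gss, glutathione synthetase, rose by 1.83, and Txnrd1, a thioredoxin reductase, fell by 0.59 on the log2 scale (limma adjusted p of 1.87e-13 and 9.99e-09). At P56 the list had 8 higher and 13 lower genes between genotypes, with a median of -0.019, where Slc7a11 itself had 0.37.

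Slc7a2, which imports cationic amino acids, had a similar genotype difference at P56 and none beyond the spread before. The gene lies at chr8:40862396-40922308 (plus strand, GRCm38) and has 9135 exonic bases, 635 of them shared with the noncoding gene Gm26584 on the other strand. At P56 its normalized count was 961, 952, 818, 1000.1 and 810.1 in wild-type and 1207, 1309, 1322, 1182 and 1039 in heterozygote-labelled libraries, a log2 difference of 0.42. At P21 the wild-type libraries had 1086, 1145, 1038, 1070.2 and 535 and the heterozygote-labelled ones 884, 1084, 1044, 990.4 and 996. The other 4 wild-type libraries lay at or above most of the heterozygote-labelled ones. The log2 difference was 0.083 with wild-type replicate 5 and -0.12 without it (limma adjusted p of 0.840 and 0.425). At P3 it was 0.096 (95% interval -0.016 to 0.21, adjusted p = 0.903). From P3 to P21 Slc7a2 rose by 0.32 on the log2 scale in heterozygote-labelled brains (limma adjusted p = 4.31e-04). In wild-type brains it rose by 0.33 (adjusted p = 0.0366), a call that ended without any 1 of P3 wild-type replicates 1, 5 and 6 and P21 wild-type replicates 1 to 4, with changes of 0.26 to 0.33 and adjusted p up to 0.110. A list of the SLC7 family also holds Slc3a1 and Slc3a2. Of its 13 genes tested, Slc7a2 and Slc7a11 among them, 6 rose and 5 fell over that time in wild-type brain, with a median of 0.075. These counts stand beside 38.5% called higher and 40.4% called lower over all genes. Slc7a10, the astrocyte carrier of alanine, serine and cysteine, rose by 1.02, and Slc7a1, the other main carrier of arginine, fell by 1.17 on the log2 scale (limma adjusted p of 1.48e-05 and 6.31e-13). At P56, 8 of 12 tested genes of this list were higher and 4 lower between genotypes, with a median of 0.029.

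Abca9 was higher at P56 in every heterozygote-labelled library than in any wild-type one. It lies in a cluster of related ABCA genes on chromosome 11 (chr11:110100749-110168196, minus strand, GRCm38), has 8048 exonic bases, and reads it shares with those relatives were divided by estimate. The P56 wild-type libraries had 337, 331, 304, 343 and 291 and the heterozygote-labelled ones 456, 451, 468, 442 and 435. The 5 heterozygote-labelled libraries lay close together and clear of the wild-type ones, with a log2 difference of 0.49. At P21 the means were 361 ± 48.1 and 357 ± 57.8 (SD, n = 5 each) and at P3 they were 517 ± 51.1 and 518 ± 75.7 (SD, n = 8 each), log2 differences of 0.021 and 0.0052 (limma adjusted p of 0.954 and 0.994). Among the neighbours in order of level, the heterozygote-labelled groups of P21 and P56 did not overlap, as for 11.5% of all genes. The wild-type groups of P21 and P56 overlapped only through P21 wild-type replicate 5, at 262. Without that library they were apart too (10% of all genes were with every library kept). Since the P56 libraries were used in the choice, nothing is read from this. Between P3 and P21 Abca9 fell by 0.54 in wild-type (limma adjusted p = 4.95e-04) and by 0.52 in heterozygote-labelled brains (adjusted p = 3.27e-05). Of 12 ABCA genes, 3 rose and 7 fell from P3 to P21 in wild-type brain, with a median of -0.43. Over all genes 38.5% were called higher and 40.4% lower. Abca2, a transporter of myelinating cells, rose by 1.05 and Abca1, which loads cholesterol onto apolipoproteins, fell by 1.31 on the log2 scale (limma adjusted p of 1.86e-08 and 5.42e-08). Between genotypes, 10 of 10 tested ABCA genes, Abca9 among them, had a higher mean log2 value in heterozygote-labelled brains at P21 and 9 of 10 at P56. The shares of all genes were 44.6% and 48.2%. The medians of the list were 0.18 and 0.22, and 0 passed at P21. Genotype differences of all genes rose with exonic length, with medians of 0.048 at P21 and 0.065 at P56 in the longest of 5 classes. The list was not compared with genes of like length. Abca9 itself was at -0.039 at P21 without the libraries beyond 2 SD, and at -0.014 with the length trend removed.

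Dock10, an exchange factor for Cdc42 and Rac, rose from P3 to P21 and was higher at P56 in every heterozygote-labelled library than in any wild-type one. It lies at chr1:80501073-80758527 (minus strand, GRCm38) and has 18267 exonic bases. At P56 the normalized counts were 1516, 1612, 1589, 1598 and 1732 in wild-type and 2025, 2133, 2309, 2073 and 2015 in heterozygote-labelled libraries, a log2 difference of 0.39. At P21 they were 2157, 2097, 1955, 2108 and 1443 in wild-type and 2161, 2451, 2736, 2168 and 2107 in heterozygote-labelled libraries. Wild-type replicate 5 was far below the rest, and 2 of the heterozygote-labelled libraries, replicates 2 and 3, were clearly above. The P21 log2 difference of 0.26 (95% interval 0.026 to 0.49) had an unadjusted p of 0.0320 and a limma adjusted p of 0.312, and without wild-type replicate 5 it was 0.15. At P3 it was 0.043 (adjusted p = 0.920). With age, P3 to P21, Dock10 rose by 1.14 on the log2 scale in wild-type and by 1.36 in heterozygote-labelled brains (limma adjusted p of 4.45e-09 and 8.61e-13), with no overlap between the ages. Of 19 DOCK exchange factors and Rac and Cdc42 GTPases, 10 rose and 6 fell in wild-type brain over that time, with a median of 0.22. The shares called over all genes were 38.5% higher and 40.4% lower. Dock8, an immune cell relative, rose by 1.14, and the neuronal GTPase Rac3 fell by 2.89 on the log2 scale (limma adjusted p of 2.27e-04 and 1.84e-15). At P56, 13 of the 19 were higher and 6 lower between genotypes, with a median of 0.11.

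Ly6e, the surface protein of the LY6 family, was the member with the highest level for its length, and its genotype values were alike at P21 and P56. Per exonic kilobase its mean normalized count was 559 at P3 and 1586 at P21 in wild-type brain, where Mlxipl had 8.37 and 11.6. It lies at chr15:74955051-74959905 (plus strand, GRCm38) with 3784 exonic bases. At P56 the wild-type libraries had 5148, 5182, 5713, 5298 and 5375 and the heterozygote-labelled ones 4413, 4312, 4556, 4108 and 4464, a log2 difference of -0.29. At P21, in libraries that played no part in the choice, the wild-type values were 5880.3, 6263, 6023, 5547 and 6299 and the heterozygote-labelled ones 5136, 4990.1, 4543, 5419.8 and 5121. Every heterozygote-labelled library lay below every wild-type one, which held for 1.05% of all genes in this direction. The means were 5042 ± 319.9 and 6002 ± 308 (SD, n = 5 each), and the log2 difference of -0.25 (95% interval -0.38 to -0.12) had an unadjusted p of 0.00106 and a limma adjusted p of 0.303, so it did not pass. At P3 it was -0.12 (95% interval -0.30 to 0.054, adjusted p = 0.903), with medians of 1902 and 1996 and the 2 highest values, 2787 and 2447, in wild-type replicates 1 and 2. Ly6e rose from P3 to P21, by 1.52 in wild-type and by 1.39 in heterozygote-labelled brains (limma adjusted p of 2.14e-10 and 3.84e-13).

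Of 10 LY6 and uPAR family genes, Ly6e among them, 6 rose and 2 fell from P3 to P21 in wild-type brain, with a median of 0.98. Over all genes 38.5% were called higher and 40.4% lower, which holds for both lists given here. Ly6a, a marker of blood vessels, rose by 3.06, and Lynx1, a neuronal modulator of nicotinic receptors, rose by 2.99 on the log2 scale (limma adjusted p of 1.70e-09 and 4.37e-10). Between genotypes the family had 8 of 10 lower at P3, 9 of 10 at P21 and 7 of 10 at P56, with medians of -0.11, -0.12 and -0.099 and 0 passing at P3 or P21. Of 21 tested genes of an interferon response list that does not hold Ly6e, 17 rose and 2 fell with age in wild-type brain, with a median of 1.19, and Ifit3 rose by 2.89 (limma adjusted p = 1.26e-09). Their genotype median was -0.00013 at P21 and -0.011 at P56, where Ly6e had -0.25 and -0.29.

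Rwdd2a had a lower mean in heterozygote-labelled brains at all 3 ages. This short gene, with 1380 exonic bases, lies at chr9:86571991-86574899 (plus strand, GRCm38), and only 7.83% of tested genes were shorter. At P56 the wild-type libraries had 699, 710.4, 681, 685 and 676 and the heterozygote-labelled ones 575, 535, 538, 497 and 596, a log2 difference of -0.33. The P21 wild-type libraries had 689, 688, 709.6, 599 and 846 and the heterozygote-labelled ones 631, 520.0, 497, 614 and 634. Of the wild-type libraries 1, replicate 4, lay inside the other group's range, and the log2 difference was -0.28 (95% interval -0.50 to -0.067, unadjusted p = 0.0139, limma adjusted p = 0.303). At P3 the range was 385 to 641 (median 424) in wild-type and 357 to 480.1 (median 382) in heterozygote-labelled brains, with wild-type replicates 1 and 2 at 641 and 593. The P3 log2 difference of -0.23 (95% interval -0.44 to -0.021) had an unadjusted p of 0.0328 and a limma adjusted p of 0.903, and without wild-type replicate 1 it was -0.16. Rwdd2a rose between P3 and P21, by 0.62 in wild-type and by 0.56 in heterozygote-labelled brains (limma adjusted p of 2.55e-04 and 6.01e-06). Of 7 genes of RWD domain proteins, 4 rose and 2 fell over that time in wild-type brain (median 0.31), where 38.5% and 40.4% of all genes did. The list was led by Impact, a regulator of translation in neurons, which rose by 1.61 (limma adjusted p = 1.72e-12).

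Amn, which tethers cubilin for the uptake of vitamin B12 and filtered proteins, had the largest relative difference among the 3 genes with a lower mean at P56. It lies at chr12:111271095-111276426 (plus strand, GRCm38) and has 1843 exonic bases. At P56 the wild-type libraries had 126, 163, 158, 124 and 122 and the heterozygote-labelled ones 92.0, 84.6, 69.2, 92.7 and 93.4, means of 139 ± 20.04 and 86.4 ± 10.2 (SD, n = 5 each) and a log2 difference of -0.68. At P21 the wild-type libraries had 149.8, 149.8, 203, 137 and 191 and the heterozygote-labelled ones 174, 127, 95.1, 115 and 145. The groups overlapped, with replicate 3 lowest in the heterozygote-labelled and highest in the wild-type group, and the log2 difference was -0.35 (95% interval -0.71 to 0.0064, limma adjusted p = 0.343). At P3 it was -0.14 (adjusted p = 0.903), with the highest values of 404 and 421 in wild-type replicates 1 and 2. Amn fell from P3 to P21, with a log2 change of -0.88 in wild-type and -1.098 in heterozygote-labelled brains (limma adjusted p of 2.44e-05 and 1.78e-06). Of 16 genes of cobalamin and cubilin uptake, 9 rose and 6 fell in wild-type brain over that time, with a median of 0.23. The shares called over all genes were 38.5% higher and 40.4% lower. The receptors that work with Amn fell too, Lrp2 by 2.83 and Cubn by 1.28 on the log2 scale, and the lysosomal cobalamin carrier Lmbrd1 rose by 0.95 (limma adjusted p of 1.51e-07, 7.13e-07 and 1.33e-09). At P56 Cubn had a log2 genotype difference of 0.30 and Lrp2 of 0.36, where Amn had -0.68.

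The 250 bases before the start of Amn (RefSeq, GRCm38.p6) are shown because, besides a window of Mlxipl, only they held the E-box CACGTG among the 10 windows of the 7 members with an entry. Slc7a2, Tead1 and Ly6e had no entry.
Amn, chr12:111270846-111271095, plus strand: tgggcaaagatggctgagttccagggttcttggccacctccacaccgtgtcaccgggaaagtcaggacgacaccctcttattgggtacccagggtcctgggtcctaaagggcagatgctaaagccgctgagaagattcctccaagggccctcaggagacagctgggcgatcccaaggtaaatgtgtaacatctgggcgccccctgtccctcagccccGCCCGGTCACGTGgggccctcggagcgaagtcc
The capitals mark CACGTG at 21 to 26 bases before the start and, overlapping it on the other strand at 25 to 33 bases, a match to TGACNNNGC. The TEAD core GGAATG, in 12.6% of all windows, was in 0 of the 10.

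In the genotype comparison at P3, which asks what differed soon after birth, 0 of the 10 genes passed (limma, Benjamini-Hochberg adjusted p 0.903 to 0.994), where 0.00576% of 17371 genes did, the 1 being Myt1l. Of the 10, 1 had an unadjusted p under 0.05, against 5.04% of all genes. The groups of 0 members were apart (0.0345% of all genes). The sign was that of P56 in 9 of the 10 genes and the opposite in Mlxipl, whose difference was -0.15. Over all genes 61.5% had the same sign at both ages. The median difference in the direction of P56 was 0.087 for the 10 genes and 0.021 for all genes. Without P3 wild-type replicate 1 the count was 8 of 10 (56.7% of all genes), since the difference of Abca9 went from 0.0052 to -0.043.

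At P21, 0 of the 10 passed (limma adjusted p 0.303 to 0.954), as did 0 of 17157 genes (0%), and 4 of the 10, Ly6e, Rwdd2a, Dock10 and Zbtb20, had an unadjusted p under 0.05 where 14.8% of all genes did. That share rests on 2531 genes, a number that was 1719 without the libraries beyond 2 SD, 1582 without heterozygote-labelled replicate 2, 1378 without heterozygote-labelled replicate 3, 1023 with the number in the sample descriptions as a block, 3820 without heterozygote-labelled replicate 4 and 3814 with quality weights. In a limma fit of all 36 libraries 30 genes were called higher and 4 lower at P21, with 0 of the 10 among them. Ly6e was the 1 member whose groups were apart (1.98% of all genes in either direction). All 10 signs were those of P56, against 68.6% of all genes, and the median difference in the direction of P56 was 0.26 for the 10 and 0.071 for all genes. Several libraries bore on this count. Without P21 heterozygote-labelled replicate 3 and wild-type replicate 5, both beyond 2 SD, 6 of 10 signs were those of P56 (60% of all genes) and the median was 0.051. Mlxipl, Abca9, Slc7a11 and Slc7a2 then had differences of -0.021, -0.039, -0.017 and -0.14, while Ly6e, Rwdd2a, Amn, Zbtb20, Dock10 and Tead1 kept their sign. Leaving out only heterozygote-labelled replicate 4 or 5 also turned Abca9 and Slc7a11 below 0 (down to -0.040), as did leaving out only wild-type replicate 5 (-0.086 and -0.061). The 95% interval at P21 ran from -0.25 to 0.30 for Abca9 and from -0.21 to 0.26 for Slc7a11, below their P56 values of 0.49 and 0.37, while that of Slc7a2 reached 0.46 and took in its P56 value of 0.42. Whether P21 and P56 differed was not tested, since the P56 values were chosen for their size.

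**Figure D2:**
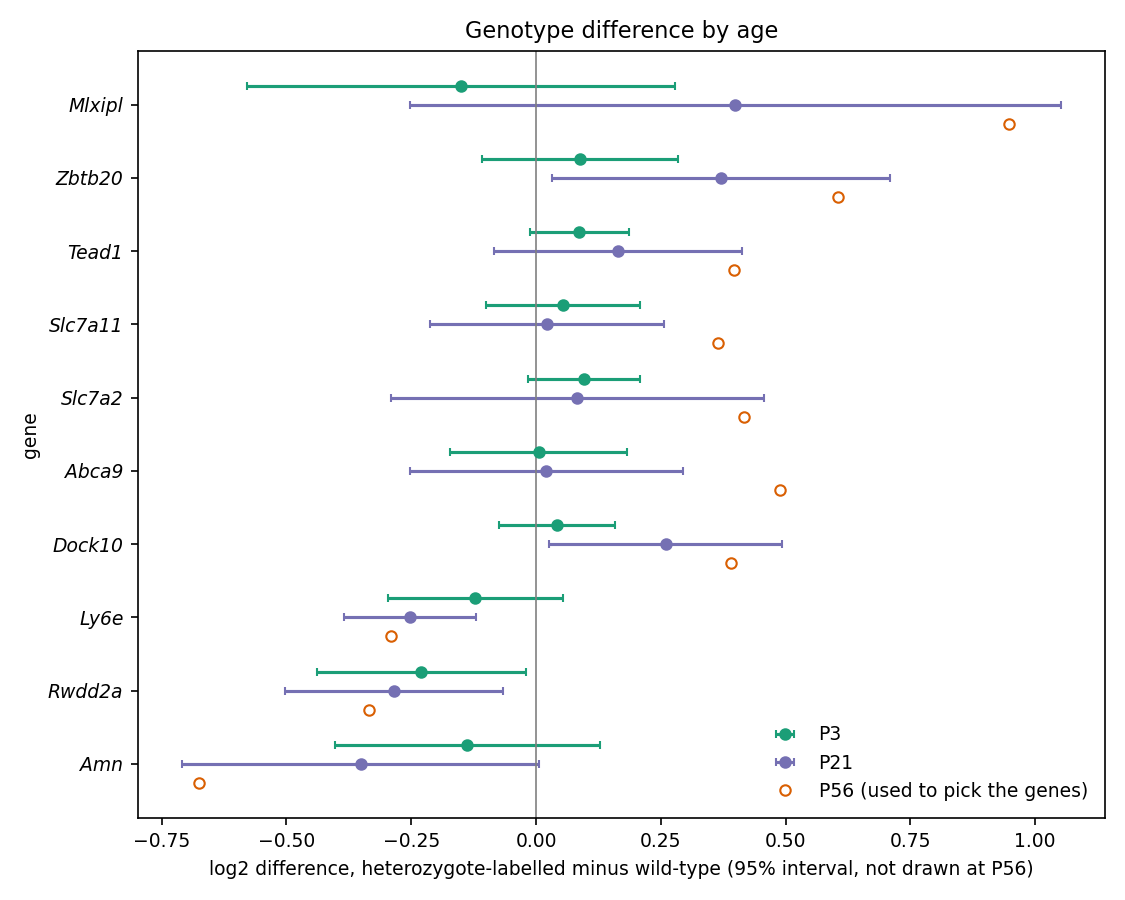
Log2 difference, heterozygote-labelled minus wild-type (horizontal axis), of each gene (vertical axis) at P3 in green, P21 in purple and P56 as open orange circles, with 95% intervals from limma at P3 and P21. Ly6e and Rwdd2a have similar values at P21 and P56, and Abca9, Slc7a11 and Slc7a2 lie near 0 at P3 and P21.

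Each P21 sample has in its description a leading number, 11, 16 or 24, of unstated meaning. Among the 2 wild-type and 2 heterozygote-labelled samples with 11, all 10 genes had the sign of the whole P21 comparison, with 0.83 for Mlxipl, 0.53 for Zbtb20, -0.17 for Ly6e and -0.19 for Rwdd2a. Among the 1 wild-type and 3 heterozygote-labelled samples with 24, 6 of 10 did, among them Ly6e at -0.27 and Rwdd2a at -0.33, while Mlxipl was at -0.13 and Slc7a11 at -0.18. The samples with 16 were wild-type only and give no value. Of the libraries beyond 2 SD, wild-type replicate 5 is 1 of the 2 wild-type samples with 11, and heterozygote-labelled replicate 3 is among those with 24. The count for 11 is thus not independent of wild-type replicate 5. Without that library the whole P21 comparison gave -0.086 for Abca9, -0.061 for Slc7a11 and -0.12 for Slc7a2, and the other members kept their sign.

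Whether the genotype difference itself differed between P3 and P21 was tested with an interaction term, and 0 of the 10 genes passed, as did 0 of 18554 genes (0%), of which 1577 (8.5%) had an unadjusted p under 0.05. The values ran from -0.21 for Amn (95% interval -0.65 to 0.23, limma adjusted p = 0.807) to 0.55 for Mlxipl. For Slc7a2, Slc7a11 and Abca9 they were -0.013, -0.031 and 0.016.

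The 7 genes with a higher mean at P56 were all longer than the 3 with a lower mean. Exonic lengths were 5538 to 30730 bases for the former and 1380 to 3784 for the latter. With all tested genes ordered by length and cut into 5 equal classes, 6 members fell in the longest class and 2 in the shortest. Ly6e was of middle length, with 45.5% of tested genes shorter, and Mlxipl fell in the class below the longest. The median log2 difference of all genes at P56 went from -0.087 in the shortest class to 0.065 in the longest. At P21 it went from -0.11 to 0.048 and at P3 from -0.015 to 0.0043. With the length trend removed the P56 differences were 0.28 for Dock10, 0.27 for Slc7a11 and -0.25 for Rwdd2a, and at P21 8 of 10 signs were then those of P56 (65.7% of all genes). At P3 8 of 10 were (60.6% of all genes). No more than this was tested of length.

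**Figure D3:**
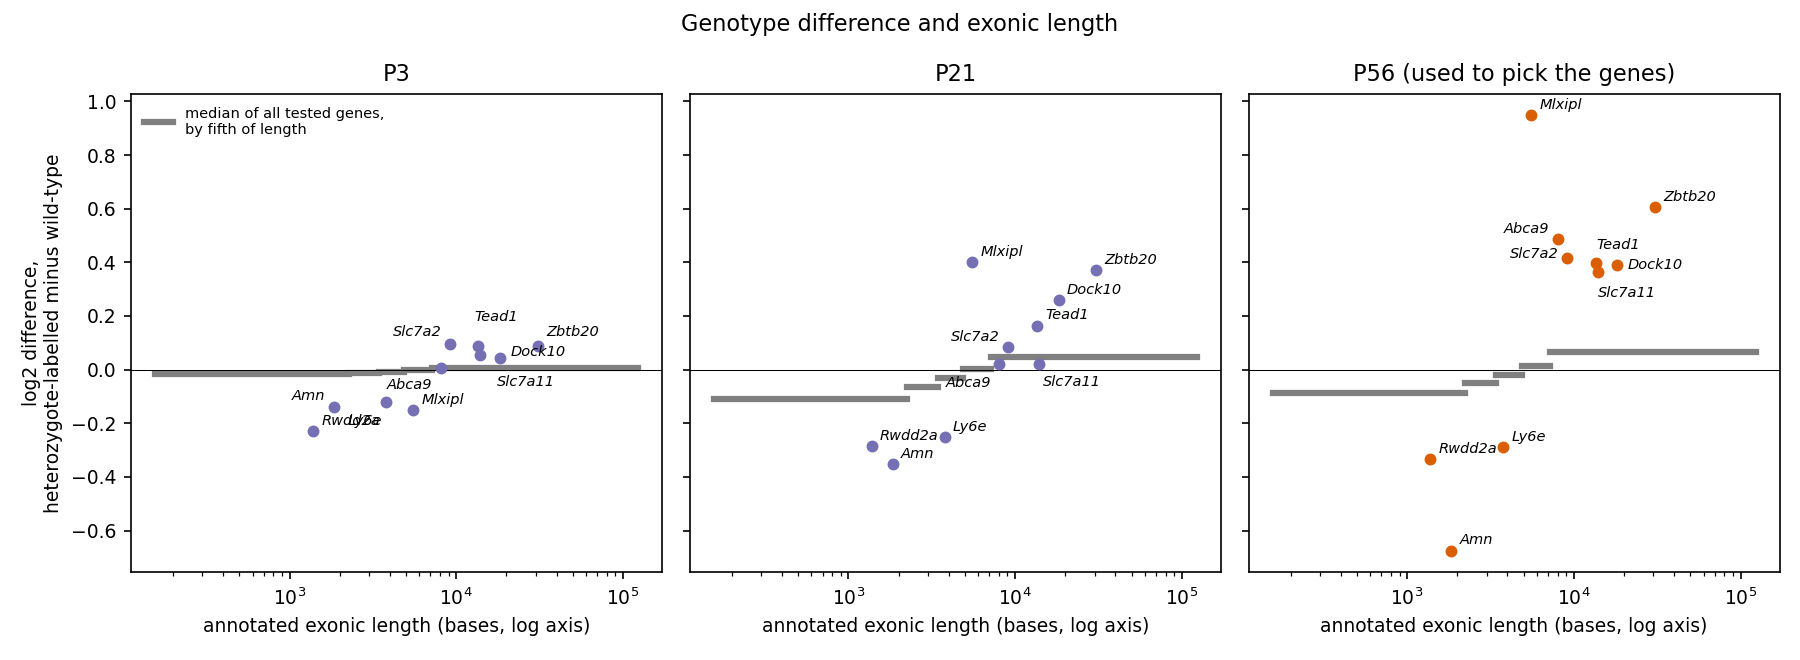
Log2 genotype difference, heterozygote-labelled minus wild-type (vertical axis), against annotated exonic length in bases (horizontal log axis) at P3, P21 and P56, with the 10 genes as points and grey bars for the median of all tested genes in each of 5 length classes. At P56 the 3 genes below 0 are shorter than the 7 above, and the grey bars climb with length at P21 and P56.

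With age, from P3 to P21, Ly6e, Dock10, Rwdd2a and Slc7a2 rose and Tead1, Amn, Zbtb20 and Abca9 fell in wild-type brain. That is 8 of 10 genes, where 78.9% of 17821 genes passed, 38.5% higher and 40.4% lower. In heterozygote-labelled brain the same 8 passed in the same direction and Mlxipl rose besides, 9 of 10 where 77.3% of all genes passed, 37.9% higher and 39.4% lower. The groups of the 2 ages were apart for 5 of the 10 genes in wild-type and 7 of 10 in heterozygote-labelled brain (58.2% and 55.5% of all genes). Scaled to a common library total, the median change of all genes went from -0.025 to -0.22 in wild-type and from -0.022 to -0.17 in heterozygote-labelled brains, and of the 10 genes Slc7a11 turned its sign. The split of called genes in wild-type brain went with it from 6863 higher and 7201 lower to 5386 and 8817. The change of Slc7a2 in wild-type went from 0.33 to 0.15 with this scaling (limma adjusted p of 0.0366 and 0.360). A batch of sequencing, were it to differ between ages, cannot be told apart from age.

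**Figure D4:**
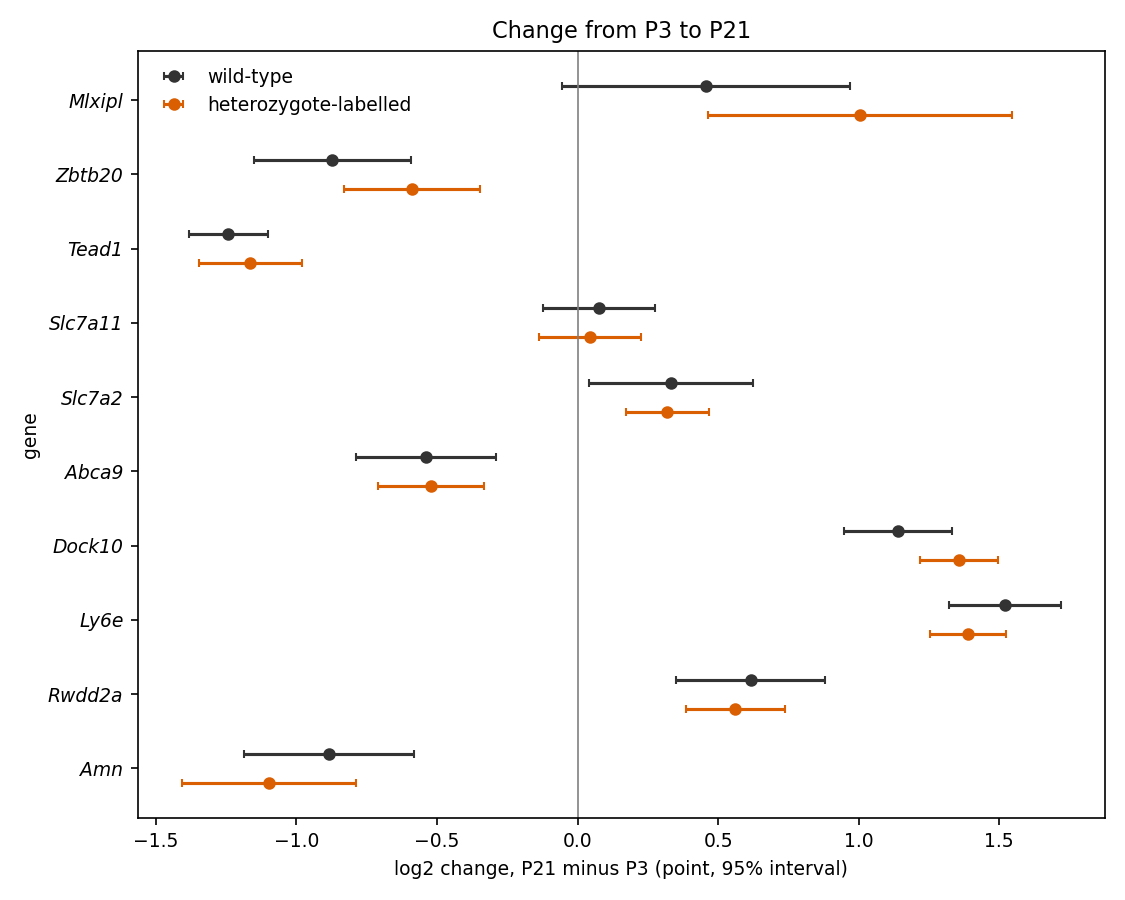
Log2 change from P3 to P21 (horizontal axis) of each gene (vertical axis) in wild-type (dark grey) and heterozygote-labelled brains (orange), with 95% intervals from limma. Ly6e and Dock10 rose by more than 1 in both genotypes, Tead1 fell by more than 1, and Slc7a11 lies near 0.

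From P21 to P56 the values are again a description, since the P56 libraries were used in the choice. In wild-type brain 9 of 10 genes had a negative difference and Tead1 had 0.029, and the 2 ages were apart for 0 of the 10 (10% of all genes). In heterozygote-labelled brain 5 were positive and 5 negative, with Abca9 higher without overlap (0.33, 4.68% of all genes) and Amn lower without overlap (-0.58, 6.8%), 2 of 10 where 11.5% of all genes were apart. Mlxipl had a mean of 64.4 at P21 and 45.5 at P56 in wild-type and of 87.8 and 88.6 in heterozygote-labelled brains. The mean of 87.8 includes replicate 3 at 145. The log2 difference of Mlxipl was -0.43 in wild-type (limma interval -0.94 to 0.067) and 0.11 in heterozygote-labelled brains (-0.41 to 0.64). Both intervals took in 0. Since Mlxipl was chosen on its P56 values, no contrast between the genotypes is read from this. The counts of genes whose ages were apart turned on single libraries. Without P21 wild-type replicate 5 the wild-type groups were apart for 5 of the 10 genes, Mlxipl, Abca9, Dock10, Slc7a11 and Slc7a2, all lower at P56, without P21 wild-type replicate 4 or P56 wild-type replicate 3 for 1, and without P21 heterozygote-labelled replicate 3 the heterozygote-labelled groups were apart for 4.

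Most marker genes of astrocytes and of the oligodendrocyte lineage had a higher mean at P56, as the 7 higher genes did, and their part in those values was not tested. In heterozygote-labelled brains 9 of 10 astrocyte, 10 of 10 oligodendrocyte and 8 of 8 oligodendrocyte precursor markers had a higher mean log2 value at P56, with medians of 0.18, 0.18 and 0.19, and 2 of 10 neuronal markers did (median -0.065). Among microglial markers 7 of 10 were higher (median 0.019), among endothelial and mural ones 8 of 10 each (medians 0.081 and 0.091), and among those of choroid plexus and ependyma 4 of 10 (median -0.012), where the median of all genes was -0.0072. Summed over the list, astrocyte markers ran from 105063 to 180882 in wild-type and from 143211 to 176095 in heterozygote-labelled libraries, and those of precursors from 9224 to 14851 and from 12458 to 17198, so the sums overlapped. Fibroblast and meningeal markers, of cells in which Slc7a11 and Abca9 are also found, were higher in 9 of 10 (median 0.13), with sums of 8791 to 12074 and 10461 to 13509. At P21 the signs of the glial lists were mostly the opposite, with 3 of 10 astrocyte, 4 of 10 oligodendrocyte, 2 of 8 precursor and 0 of 10 microglial markers higher. Blood markers were lower in 7 of 7 tested at P21 (median -0.97) and in 8 of 9 at P56 (median -0.39).

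Over all 36 libraries the members moved within groups in 2 blocks that match the direction at P56, and the block of 7 rested largely on 3 libraries. Gene length was not taken into account, and no pairs of other genes of like length are given beside these values. Each log2 value was centred on the mean of its age and genotype, so the genotype difference itself is removed, and correlations over the 36 libraries are given as a description. All 21 pairs of the 7 higher genes had a positive Pearson r, with a median of 0.45, and the 3 pairs of Ly6e, Rwdd2a and Amn had 0.66 to 0.84. Of the 21 mixed pairs 3 were positive, and their median was -0.40. The genes of a library share its depth and its RNA sample. At P21 the medians were 0.70, 0.73 and -0.63 (10 libraries), the strongest of the 3 ages for the 7 genes and the mixed pairs. The 3 genes had their highest median at P3. At P56 the medians were 0.17, 0.22 and -0.23 and at P3 0.13, 0.85 and -0.24. Without the 3 libraries beyond 2 SD they were 0.11, 0.69 and -0.14, so the positive values among the 7 genes rested largely on those libraries, and those among the 3 genes did not. Slc7a11 stood out from the 7 with r of 0.067 to Zbtb20 and 0.16 to Tead1, and of 0.15, 0.14 and 0.026 to Ly6e, Rwdd2a and Amn.

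**Figure D5:**
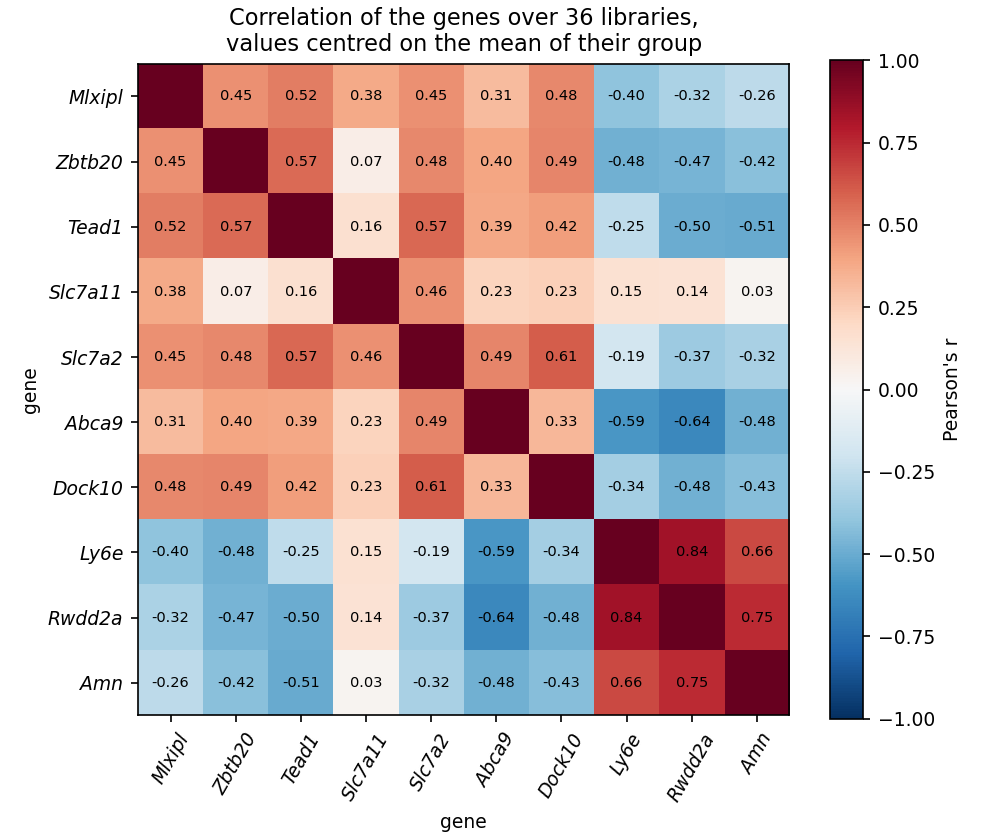
Pearson's r between each pair of the 10 genes (both axes) over 36 libraries, after the log2 values were centred on the mean of their age and genotype, with red for positive and blue for negative values. The 7 genes from Mlxipl to Dock10 form a block of positive values and Ly6e, Rwdd2a and Amn another, and values between the blocks are mostly negative. Without the libraries beyond 2 SD the median r among the 7 genes was 0.11.

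Among 15823 genes compared in the same way, those closest to Rwdd2a were the neuronal genes Cend1 (r = 0.93), Sncb (0.92), which encodes beta-synuclein, and Rab3a (0.91), a GTPase of synaptic vesicles. Ly6e was closest to Hnmt, the histamine-degrading enzyme, and to Syp, the vesicle protein synaptophysin (0.86 and 0.85). Slc7a2 was closest to Slc12a2, an ion cotransporter, and Itgb8, an integrin of glia (0.87 and 0.85). Abca9 was closest to Bach1 (0.79), Slc7a11 to Itgam (0.77), Tead1 to Fcho2 (0.76) and Dock10 to Gbp5 (0.69). For Mlxipl and Amn the first genes were the uncharacterised 4931406C07Rik (0.76) and 5730409E04Rik (0.79).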

How the data were processed

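Whole-brain RNA libraries of 36 mice were made with a kit that does not record the strand. The authors estimated gene counts with Salmon 1.1.0 and scaled them with DESeq2 1.26.0 in R 3.6.2 against GRCm38, per the submitters' processing notes. For the annotation release and any gene filter, the sources used here say nothing. The deposited values are a signal in units of normalized counts, scaled by the authors over the libraries together. Only 0.748% of them are whole numbers, whole reads were not recovered, and the depth of each library is unknown, so precision is judged from the spread of the libraries alone.

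All 36 columns were matched to samples by name. For 19150 of 19164 identifiers the GENCODE annotation of GRCm38 had an entry, from which positions and exonic lengths were taken. The 10 genes were found by symbol and all of them passed the filter in every comparison, which asked for 10 or more in a number of libraries equal to the smaller group's size. Log2 of the value plus 1 was fitted with limma 3.58.1 (R 4.3.3, trend and robust options, two-sided), separately for each comparison and over all genes. Calls were made where the p adjusted by Benjamini-Hochberg was under 0.05. A fold on this scale understates the change of low genes. The comparisons were genotype at P3 and at P21, P3 against P21 in each genotype, and the interaction of both. P56 was described with the same fit and no call. A list is described by counts and its median beside that of all genes. Of all genes tested for genotype, 47.4% had a higher mean log2 value in heterozygote-labelled brains at P3, 44.6% at P21 and 48.2% at P56. The members, lists and comparisons were chosen with earlier results of these data known.

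Named genes are the members, Myt1l, the 2 genes next in p at P56, for each list the called genes that changed most from P3 to P21 in wild-type brain (up to 3 higher and 3 lower, of which a part is given), and the closest genes by correlation, also in part. Some genes that this rule names are not reported here. Cubn is named as the partner of Amn and is among the 3 of its list. The plan named a count test for a table of counts, and because the values are normalized the test for normalized values was used. Windows before RefSeq starts were searched for 5 motifs on both strands. The procedure was tested on simulated data. Alternatives were added values of 0.5 and 8, no filter and a filter at 50, quantile normalization, a common library total, limma without the trend, quality weights, a fit of all libraries, a replicate block, the P21 number as a block, a length trend removed, libraries beyond 2 SD left out, and each library left out in turn.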

Additional observations from a re-analysis of the deposited data

Results flagged for a closer look

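Among 60 groups of libraries, 4 had a value far from the others by Dixon's test at 95%, where chance gives about 1 in 20 groups. In P21 wild-type brain, replicate 5 was lowest for Dock10 at 1443, for Slc7a2 at 535 and for Tead1 at 600.1, while the other 4 libraries lay at 1955 to 2157, at 1038 to 1145 and at 766 to 788. The same library lay beyond 2 SD on a principal component of its age, so these 3 values are not independent of each other. In P3 heterozygote-labelled brain, replicate 1 was highest for Rwdd2a at 480.1, with the other 7 libraries at 357 to 404.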

How the results depend on the processing

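The count of members called for genotype was 0 at P3, 0 at P21 and 0 in the interaction under every alternative, and with each library left out it also ranged from 0 to 0. Over all genes, those with an unadjusted p under 0.05 numbered 875 at P3 but 480 in the fit of all 36 libraries and 1428 with the replicate block, and were 8.5% of genes in the interaction but 4.44% without P21 heterozygote-labelled replicate 3 and 15.7% with quality weights. In wild-type brain the count of members called from P3 to P21 ranged from 7 to 9 with 1 library left out, and in heterozygote-labelled brain it was 9 each time. The count of members whose groups were apart at P56 ranged from 9 to 10. The count of members apart from P21 to P56 was 0 in wild-type and 2 in heterozygote-labelled brain, ranged from 0 to 5 and from 2 to 4 with 1 library left out, and was 5 and 4 without the libraries beyond 2 SD.

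Small differences turned their sign. For Abca9 at P3 (0.0052) it was -0.043 without libraries beyond 2 SD, -0.00027 with the length trend removed and -0.029 with quality weights, and -0.043 to 0.044 with 1 library left out. At P21, without libraries beyond 2 SD, Mlxipl was at -0.021, Abca9 at -0.039, Slc7a11 at -0.017 and Slc7a2 at -0.14. With the length trend removed Abca9 was at -0.014 and Slc7a11 at -0.063, and with quality weights Abca9, Slc7a11 and Slc7a2 were at -0.041, -0.042 and -0.053. With 1 library left out they ranged from -0.086 to 0.077, from -0.061 to 0.088 and from -0.12 to 0.15. From P3 to P21 Slc7a11 was at -0.11 with a common library total in each genotype, and in heterozygote-labelled brain at -0.013 with quantile normalization and from -0.017 to 0.087 with 1 library left out. The cause was not tested.

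In wild-type brain Slc7a2 lost its P3 to P21 call with quantile normalization, a common total and limma without the trend (adjusted p of 0.0656, 0.360 and 0.0605), and Mlxipl gained one with quantile normalization, without libraries beyond 2 SD and with quality weights (0.0408, 0.0121 and 0.0122).

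Replicate numbers were not taken as pairs in the main fits, and the check below does not settle whether some samples were paired. Samples of the 2 genotypes with the same number deviated together with r over 0.1 in 2 of 8 cases at P3, 2 of 5 at P21 and 1 of 5 at P56. The highest r was 0.32 at P3, 0.11 at P21 and 0.28 at P56. With the replicate block 0 members were called at P3, P21 and in the interaction. Depth is unknown, which leaves the low counts of Mlxipl and Amn without a counting error.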
